A study of Drosophila eugracilis and Drosophila pseudoobscura and Drosophila bifasciata with 4 samples.

Results

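Long stretches of the genome that were transcribed from 1 strand and held almost no spliced reads were collected in ovary polyadenylated RNA of 3 Drosophila species. Each alignment was assigned by its 5' end to a tile of 0.5 kb, and a run was a stretch of 6 or more neighbouring tiles with at least 8 alignments each and at least 90% of them on the same strand. A run was kept as unspliced when under 1% of its alignments were split over more than 1 aligned block. The rule kept 140 of 2273 runs for D. pseudoobscura (6.16%), 103 of 2282 for D. eugracilis (4.51%) and 117 of 2435 for D. bifasciata (4.8%), or 360 of 6990 runs in all. The other 6630 runs passed the same rule for tiles and strand but held 1% or more split alignments, and they are called spliced runs here. The runs were selected on the measured alignments (count per tile, strand and splitting), so their number, their minimum length, their strand share and their lack of splicing are a description and not a finding.

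The flies were wild type females aged 2 to 7 days on standard food, from strains labelled MV2-25 (D. pseudoobscura), SHL12 (D. eugracilis) and Jozankei, Hokaidou (D. bifasciata), and their ovaries, which hold germline and somatic cells, gave 1 library per group. The polyA libraries held 14159668, 13099511 and 13983030 alignments with a single place in the genome for D. pseudoobscura, D. eugracilis and D. bifasciata, and a QuantSeq library of D. eugracilis, which reads the 3' ends of polyadenylated RNA, held 6256158. With 1 library per group no value could be set against a biological spread, no test was run, and species, strain and library cannot be told apart. All intervals are exact 95% intervals that cover counting error only. Those on alignments treat both mates of a pair and repeats of a position as independent, so they are too narrow. The ovary label was not checked, since 0 of 20 marker symbols were in the gene table used.

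Most protein-coding transcripts of flies are spliced, and reads that cross an exon junction are how RNA-seq shows it. A kilobase-scale stretch of RNA without junctions can come from an intronless gene, from a single long exon such as a 3' terminal exon, from a retained intron, or from a non-coding precursor. In fly ovaries the last kind includes precursors of piRNAs, small RNAs bound by PIWI proteins that silence transposons, which are transcribed from piRNA clusters on 1 strand or on both. Which of these a given run was could be looked at only through its introns, its annotated genes and its 3' end reads.

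Unspliced runs were short within the range the rule allows, and spread widely in level. The median length was 3.5 kb in each species, and 156 of the 360 runs had the minimum of 6 tiles. Runs of 10 or more tiles made up 15.7% of unspliced runs for D. pseudoobscura (10.1 to 22.8), 11.7% for D. eugracilis (6.17 to 19.5) and 13.7% for D. bifasciata (8.02 to 21.3). Among spliced runs those shares were 24.0%, 25.7% and 30.2%, so the long tail was thinner among unspliced runs in each library. The splicing limit, which counts split alignments over the whole run, can set part of this contrast. The longest unspliced runs measured 10, 7 and 9.5 kb, against 17, 17.5 and 18 kb for the longest spliced ones.

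Levels are given as alignments on the run's strand per kb and per 1000000 genome-unique alignments of the library (RPKM), on which scale 8 alignments in a tile equal 1.13, 1.22 and 1.14 in the order of the species above. The median level of unspliced runs was 26.2 RPKM for D. pseudoobscura (range 1.65 to 605), 16.5 for D. eugracilis (1.93 to 1563) and 16.3 for D. bifasciata (1.39 to 713). Spliced runs had medians of 28.4, 15.4 and 24.9 RPKM. Below 10 RPKM lay 26.4% of unspliced and 12.2% of spliced runs in D. pseudoobscura, and 33.3% and 13.2% in D. bifasciata. In D. eugracilis the 2 shares were 33.0% and 33.6%.

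**Figure D1:**
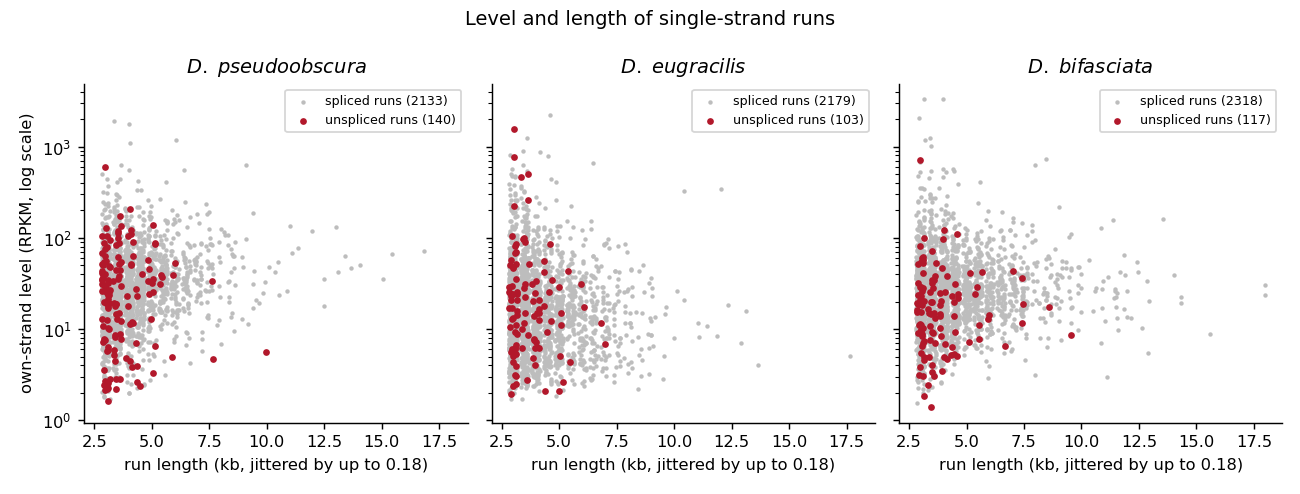
Length of each run in kb (jittered) against its own-strand level in RPKM on a log axis, in 1 panel per species, with spliced runs in grey and unspliced runs in red. The unspliced runs crowd at 3 to 5 kb over the whole range of levels, and those of 7 kb or longer lie at 43 RPKM or below in every panel.

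A few runs held much of the material. The 360 runs took 2.19% of all alignments for D. pseudoobscura, 2.06% for D. eugracilis and 1.25% for D. bifasciata, over 522, 379.5 and 453.5 kb. The 10 runs with most alignments held 31.5% of that for D. pseudoobscura, 65.7% for D. eugracilis and 41.4% for D. bifasciata.

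The highest run of D. eugracilis lay on a small contig, NW_024571840.1, on which alignments reached 13714 nt. The plus-strand run NW_024571840.1:1001-4000 had 1563 RPKM (1551 to 1576), from 61441 own-strand alignments, and its tiles ranged from 31 to 35013. A minus-strand run on the same contig, NW_024571840.1:6501-10000, had 504 RPKM (498 to 511). Of their alignments 18.04% and 21.1% were distinct in position and blocks, against a median of 51.9% over the unspliced runs of the library. NW_024572964.1:3281501-3284500, on another contig and with 778 RPKM, also lay below that median, at 33.6%. What part the level has in these shares was not tested. Without the 2 runs on NW_024571840.1 the share of D. eugracilis alignments in unspliced runs was 1.40%. No gene could be placed on NW_024571840.1.

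The next runs of D. eugracilis lay in annotated genes. NW_024572964.1:3281501-3284500 on the plus strand had 778 RPKM (769 to 787), overlapped LOC108107935 and LOC108107936, and received 1028 split alignments that began upstream and continued into it. NW_024573454.1:131501-135000 had 468 RPKM and received 1652 such alignments, and its own tiles fell from up to 6827 to 16 alignments. By contrast NW_024573812.1:8629501-8633000, in the span of LOC108113166, had 259 RPKM (254 to 264) and received 2, with 3 split alignments among 11990.

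The highest run of each other species also received split alignments. In D. pseudoobscura utg000045l:1879001-1882000 had 605 RPKM (597 to 612) and 267 entering split alignments, and it was followed by utg000079l:3573001-3577000 with 205 RPKM and 1130 of them. In D. bifasciata CM019043.1:27048501-27051500 had 713 RPKM (705 to 721) and 1626, while CM019041.1:5545001-5549000 had 122 RPKM and 13. A run can therefore count as unspliced by the rule, which reads only alignments that start inside it, and still be the far end of a spliced transcript.

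That was examined for all runs with introns of 40 to 20000 nt supported by at least 3 alignments. No own-strand intron touched 186 of the 360 unspliced runs, which is 52.1% for D. pseudoobscura (43.5 to 60.7), 49.5% for D. eugracilis (39.5 to 59.5) and 52.99% for D. bifasciata (43.5 to 62.3). For spliced runs the shares were 0.422%, 0.275% and 0.345%, a difference that the splicing limit itself largely sets. An intron that ended in the run, with its 5' side outside, was found in 53, 40 and 47 unspliced runs, or 37.9%, 38.8% and 40.2%. Over all runs that share was 36.3%, 35.8% and 37.7%, so the unspliced runs sat near the background.

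Where each run is put in 1 class only, 124 runs had an intron ending in them and 25 lay wholly inside an intron. The runs inside an intron numbered 9 for D. pseudoobscura, 6 for D. eugracilis and 10 for D. bifasciata, or 6.43%, 5.83% and 8.55%, against 0.924%, 0.789% and 0.986% of all runs. The splicing limit itself can set part of this contrast. Classes were taken in the order inside an intron, intron ending, intron starting and intron within, and the first that applied was used. By that order 21 runs were left with an intron fully within them and 4 with one starting in them. Runs of earlier classes can hold such introns too, as utg000053l:1782001-1785500 did. The limit of 1% counts split alignments over the whole run, so the share close to an intron can be higher. In 1 tile of NW_024573039.1:1780501-1787500 in D. eugracilis, which is among the 21, 6 of 17 alignments were split.

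**Figure D2:**
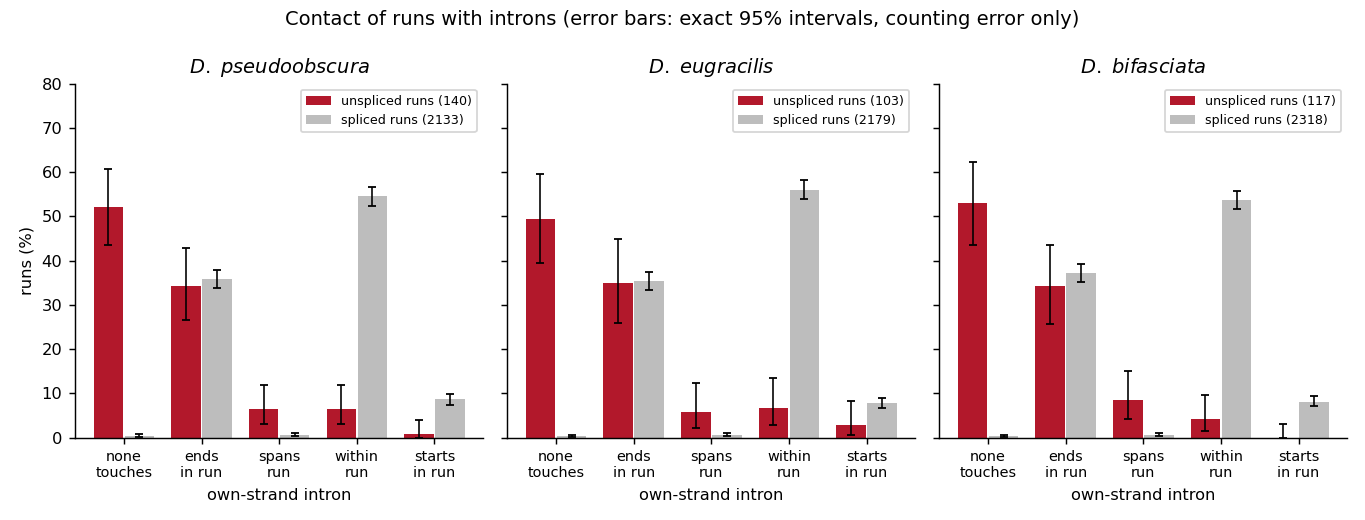
Share of runs (%) by contact with introns on their own strand, in 1 panel per species, for unspliced (red) and spliced (grey) runs with exact 95% intervals for counting error. Each run is in 1 class only, the first that applied. The bars for an intron ending in the run are of similar height in both sets, while runs untouched by an intron are nearly all unspliced.

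The runs inside introns were not weak as a group. Their median was 23.0 RPKM for D. pseudoobscura (2.24 to 52.0), 14.7 for D. eugracilis (6.69 to 31.6) and 28.0 for D. bifasciata (3.04 to 57.6). An example is utg000001l:7716501-7719500 with 52.0 RPKM, which also received 179 split alignments. In D. eugracilis 5 of the 6 overlapped a pair of genes, and 4 of these received between 18 and 48 split alignments, such as NW_024572605.1:2766001-2769500 over LOC108109119 and LOC108109120 with 31.6 RPKM. The remaining pair of runs received none.

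Split alignments entered 213 of the 360 runs, or 62.1%, 57.3% and 57.3% in the order of the species above, beside 60.9%, 62.8% and 66.2% of spliced runs. Neither a split alignment inside nor one entering was found in 86 runs, namely 33 for D. pseudoobscura, 24 for D. eugracilis and 29 for D. bifasciata. These are the strictest subset, with no split alignment that started in the run and no own-strand one with an intron border in it. Split alignments whose intron ended before the run and whose last block reached into it were not counted. Whether the mates of a read pair linked such a run to another exon was not examined.

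Along the run, levels were uneven but without a common slope. The highest tile exceeded the lowest by a median of 5.78 times for D. pseudoobscura, 7.04 for D. eugracilis and 7.07 for D. bifasciata, beside 6.45, 6.39 and 7.06 in spliced runs. Each run was also divided into 3 parts of about equal length, and the log2 ratio of the 3' part to the 5' part had a median of -0.22, -0.18 and -0.17. In spliced runs it was 0.20, -0.04 and -0.04. The 3' part was the higher one in 45.0%, 44.7% and 42.7% of unspliced runs, and 58.6%, 48.4% and 48.3% of spliced runs.

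Purity of strand differed between libraries more than between kinds of run. The median share of alignments on the other strand was 3.20% for D. pseudoobscura, 0.568% for D. eugracilis and 1.30% for D. bifasciata. Spliced runs of the same libraries gave 2.86%, 0.546% and 1.12%.

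The longest run of each species shows these features tile by tile. In D. pseudoobscura utg000136l:234001-244000 on the minus strand covered 20 tiles with 5.68 RPKM (5.29 to 6.08), between 20 and 63 alignments per tile, and 7 of its 826 alignments were split. Its upstream neighbour was empty, but the next 3 tiles upstream held 47, 31 and 24 own-strand alignments with 12, 8 and 2 split alignments, and 7 split alignments entered the run. It ended sharply, with no own-strand alignment in the next 6 tiles downstream.

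In D. eugracilis NW_024573039.1:1780501-1787500 on the plus strand had 11.8 RPKM (11.1 to 12.5), with 12 to 144 alignments per tile and 9 split alignments. It lay in the span of LOC108105040, and the tiles on either side held at most 2 alignments. NW_024572616.1:18001-25000 had the same length with 6.81 RPKM and 0 of 630 alignments split, though 19 split alignments entered it.

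In D. bifasciata CM019041.1:13390001-13399500 on the minus strand had 8.70 RPKM (8.21 to 9.22), with a maximum of 156 alignments in the second tile and 10 in the lowest. The log2 ratio of its 3' to its 5' part was -1.52, a decline toward the 3' end. The nearest spliced unit on its strand, a unit being the merged span of overlapping introns, was 402969 nt upstream and 356356 nt downstream. On the opposite strand a spliced unit lay 10775 nt from the run. The second longest, CM019041.1:5290501-5299000, had 17.4 RPKM and received 71 split alignments.

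**Figure D3:**
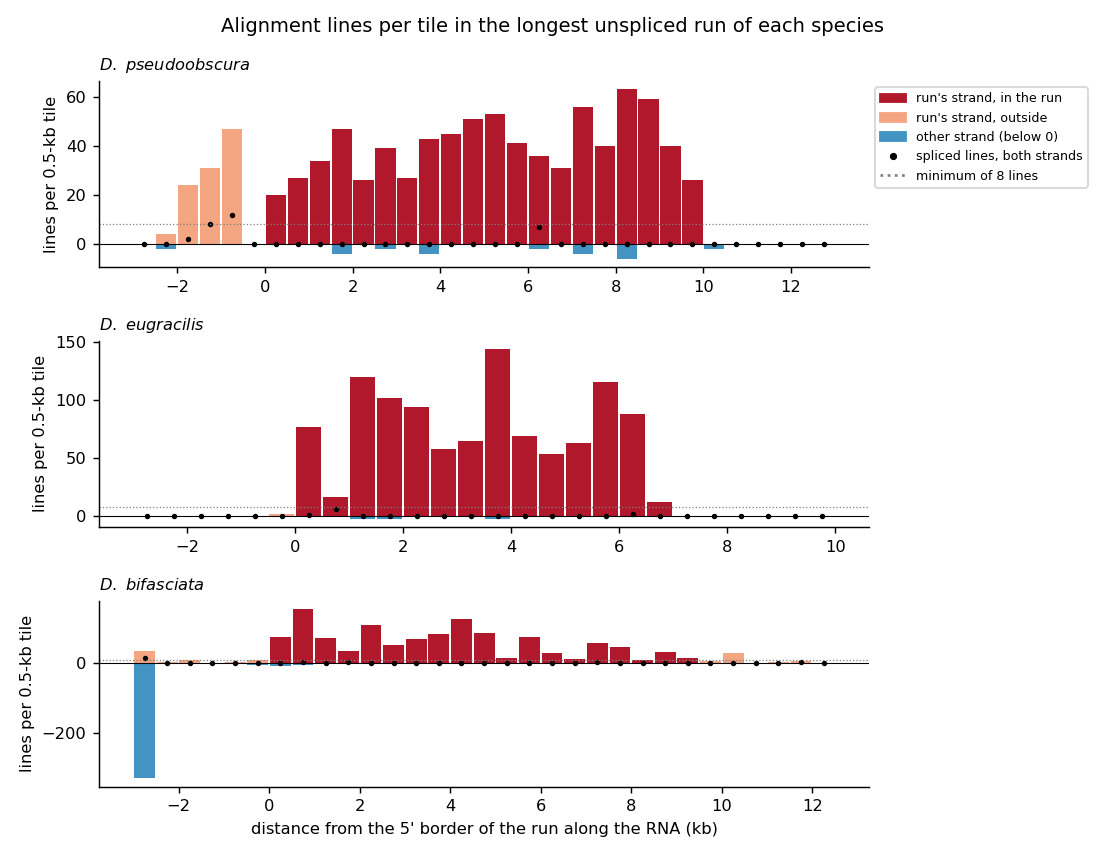
Alignments per 0.5-kb tile along the longest unspliced run of each species, by distance in kb from its 5' border, with the run's strand above 0, the other strand below 0 and split alignments as black dots. The D. pseudoobscura run is nearly level over 10 kb, the D. eugracilis run is bounded by tiles of at most 2 alignments, and the D. bifasciata run declines from a maximum of 156.

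Close to 1 in 2 unspliced runs overlapped a spliced unit of their own strand, and a smaller share lay beyond 10 kb from one. The overlap was seen in 47.9% of runs for D. pseudoobscura, 50.5% for D. eugracilis and 47.9% for D. bifasciata, and the median distance to the nearest unit was 96, 0 and 489 nt. Further than 10 kb away lay 7.86% (3.99 to 13.6), 13.6% (7.63 to 21.8) and 23.1% (15.8 to 31.8), against 0.141%, 0.0459% and 0.216% of spliced runs. The contrast with spliced runs follows in part from the rule. These intervals treat runs as independent, which neighbouring runs are not, so they do not serve to compare species. Species, assembly and density of spliced units cannot be told apart. With introns of 10 or more alignments the medians were 704, 1986 and 1885 nt, and with tiles shifted by 250 nt they were 0 in each species, so the nonzero medians depend on the tile grid and on how weak an intron is counted.

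**Figure D4:**
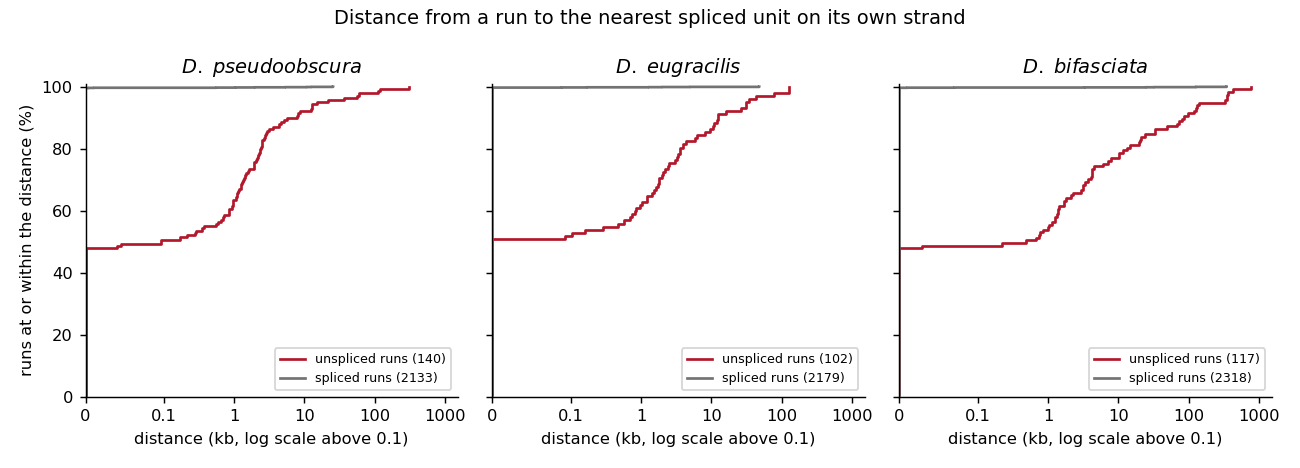
Cumulative share of runs (%) by distance in kb to the nearest spliced unit on their own strand, on an axis that is linear up to 0.1 and logarithmic above, for unspliced (red) and spliced (grey) runs. The red curves start near 50% at a distance of 0 and the D. bifasciata curve rises most slowly, with 23.1% of its runs beyond 10 kb.

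Runs more than 50 kb from an own-strand spliced unit numbered 5 for D. pseudoobscura, 3 for D. eugracilis and 15 for D. bifasciata, beside 0, 0 and 3 spliced runs. In D. pseudoobscura they ranged from utg000073l:68001-71500 with 2.22 RPKM, 302557 nt from a unit, to utg000061l:3256501-3260500 with 105 RPKM, 55316 nt away. In D. eugracilis the highest was NW_024573454.1:387001-390500 with 99.2 RPKM, 125757 nt from a unit. It overlapped 4 annotated genes, LOC108111181, LOC108111198, LOC108110849 and LOC108110840. The other pair lay on NW_024573038.1, in LOC108108655 with 10.99 RPKM and in LOC108104291 with 2.11 RPKM.

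In D. bifasciata the distant runs gathered on 1 contig. CM019041.1 held 43.6% of the unspliced runs (34.4 to 53.1) but 21.0% of the spliced ones (19.3 to 22.7). Within it, the 2 Mb from 13 to 15 Mb held 16 unspliced runs, or 8 per Mb, beside 1.62 per Mb over the first 13 Mb and 0.270 per Mb beyond 19 Mb. Spliced runs numbered 14.5 per Mb in the window, between 17.8 per Mb over the first 13 Mb and 8.15 beyond 19 Mb, and spliced units 102 per Mb, between 163 and 84.1. The window was picked after its runs had been seen.

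Of those 16 runs, 10 were on the plus and 6 on the minus strand, 15 were touched by no own-strand intron, and 11 lay over 50 kb from an own-strand spliced unit, up to 356356 nt. Their median level was 8.81 RPKM, and the range was 1.39 to 71.9. The highest, CM019041.1:13360001-13363500 on the minus strand, lay at lower coordinates than the longest run. The plus-strand runs from 13476001 to 13529000 had 14.96, 26.2, 25.5 and 22.98 RPKM, and those from 14240001 to 14249000 had 9.07 and 6.83. In each of the 16 runs the share of alignments distinct in position and blocks, 11.97% to 48.7%, was below the median of 53.2% over the unspliced runs of the library, and it was lowest in the highest run. What part such repeats have in their level was not tested. Neighbouring runs on the same strand at similar levels are not independent, and whether they belong to 1 transcript was not tested. Only reads with a single place in the genome were used.

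The other species had no contig with such a share. In D. pseudoobscura the runs lay on 47 contigs, 12.1% on utg000001l beside 11.7% of spliced runs, and in D. eugracilis on 38 contigs, 16.5% on NW_024573812.1 (9.92 to 25.1) beside 10.1%. The median distance to the nearer end of the contig was 617 kb for D. pseudoobscura, 919 kb for D. eugracilis and 9768 kb for D. bifasciata, and 6, 2 and 1 runs lay within 10 kb of it. The plus strand carried 46.4%, 53.4% and 59.0% of the runs, with 37.97 to 55.0, 43.3 to 63.3 and 49.5 to 68.0 as intervals. Contig utg000040l of D. pseudoobscura held 3 runs on both strands, with 4.45, 42.8 and 23.6 RPKM. Contig utg000003l held the 7.5-kb run utg000003l:470501-478000 with 4.65 RPKM. It overlapped an own-strand spliced unit, with an intron starting in it and 4 of its 502 alignments split. The next other units lay 47221 nt upstream and 377096 nt downstream.

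The tile next to the run often fell under the minimum of 8 alignments. Upstream this was so for 60.0%, 76.7% and 68.4% of the unspliced runs in D. pseudoobscura, D. eugracilis and D. bifasciata, and downstream for 43.6%, 76.7% and 64.1%. Spliced runs gave 62.8%, 68.0% and 63.8% upstream and 53.2%, 67.6% and 66.4% downstream. In D. pseudoobscura 49.3% of the runs were followed by a tile with both strands, beside 28.2% for D. bifasciata and 8.74% for D. eugracilis. Spliced runs of the same libraries had the same order, with 37.5%, 18.9% and 13.5%.

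In D. eugracilis the runs could be compared with annotated genes, whose contigs were inferred from the introns. Genes were placed for the contigs of 95 of the 103 runs. All 95 overlapped at least 1 gene, and each of the 139 overlaps was with a gene annotated as protein-coding. These counts were near those of the spliced runs on placed contigs, of which 1206 of 2061 overlapped 1 gene and 853 more than 1, with 3161 protein-coding overlaps beside 22 with snoRNAs, 10 with lncRNAs and fewer with other classes. A single gene was overlapped by 63 runs, a pair by 21, 3 genes by 10 and 4 genes by 1. A whole gene, with 500 nt allowed on each side, was contained in 38 of the 95 runs, beside 1120 of 2061 spliced runs, and more than 1 whole gene in 8, beside 284. In turn 42 runs were covered in full by the spans of 1 or more annotated genes, beside 698 spliced runs. The annotated genes covered a median of 97.1% of the run, beside 96.8% for spliced runs. The gene table gave no strand, so an overlap does not show that run and gene share it.

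Runs over several genes reached 3 genes in the following examples. NW_024573311.1:2166001-2169500 on the minus strand overlapped LOC108104138, LOC108104137 and LOC108104143 with 96.6 RPKM, and NW_024573039.1:579001-584500 overlapped LOC108117612, LOC108117608 and LOC108117607 with 42.8 RPKM. Tiles of 0.5 kb cannot separate genes that lie closer than a tile.

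QuantSeq, which was not used to choose the runs, gave alignments at the 3' end of most of them. The paper marks a QuantSeq peak near the yb pseudogene as a suspected case of priming inside a transcript. Such priming was not screened for here, so a QuantSeq site need not be a true 3' end. In the last tile of the run and the next tile downstream, 96 of 103 unspliced runs had 10 or more QuantSeq alignments on their strand, or 93.2% (86.5 to 97.2), beside 85.4% of all 2282 runs and 85.0% of the spliced ones (83.5 to 86.5). The opposite strand of the same window reached 10 in 21.4% of unspliced runs (13.9 to 30.5), with 30.5% over all runs. The 5' window of the run, built the same way, reached 10 in 24.3% (16.4 to 33.7), with 17% over all runs. More alignments at the 3' than at the 5' end were found in 91 of the 103 runs and fewer in 9, or 88.3% and 8.74%, close to the 87.4% and 8.35% of spliced runs.

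In amount the 3' ends of both kinds of run had the same median. It was 143 alignments for unspliced and for spliced runs, or 22.9 per 1000000 QuantSeq alignments (CPM), and the quartiles were 8.31 and 44.0 CPM beside 8.95 and 46.2. At the 5' end the median was 1 alignment in both. Across the 103 runs the level in polyA RNA and the QuantSeq CPM had a Spearman's rho of 0.56, and across the 2179 spliced runs 0.45. These are descriptions over runs of 1 pair of libraries.

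The 5 runs with most QuantSeq alignments differed in how many sites they held, a site being a position with at least 10 alignments and 10% of the run's QuantSeq alignments within 50 nt. NW_024571840.1:1001-4000 led with 6430 CPM (6367 to 6493) and 2 sites. NW_024572964.1:3281501-3284500 had 1146 CPM and 3 sites, the leading one with 67.3%. NW_024573870.1:438501-443000 in LOC108106837 had 368 CPM at only 34.5 RPKM of polyA RNA. NW_024572605.1:4481001-4484000 in LOC108105408 had 356 CPM, with 92.5% of its alignments at 1 site and no intron touching it. The 3-gene run NW_024573311.1:2166001-2169500 had 335 CPM and also 1 site.

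Most runs held more than 1 site. The numbers of unspliced runs with 0, 1, 2, 3 and 4 or more sites were 6, 22, 45, 21 and 9, and those of spliced runs 193, 643, 864, 388 and 91. The leading site took a median of 53.9% of the run's QuantSeq alignments. Runs over 2 or more genes had a median of 2 sites, as had runs over 1 gene. The longest run, NW_024573039.1:1780501-1787500, had 311 alignments at its 3' window and 585 at its 5' window, and was thus 1 of the 9 with more at the 5' side.

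Averaged over runs with equal weight, 62.4% of the QuantSeq alignments in the profile around the 3' border ended within 500 nt of the 3' border, beside 71.2% for spliced runs. The median position with most alignments in the 3' window was 2 nt downstream of the border, with quartiles at -196 and 172 nt. Since borders are set by tiles, distances under 500 nt carry no finer meaning.

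**Figure D5:**
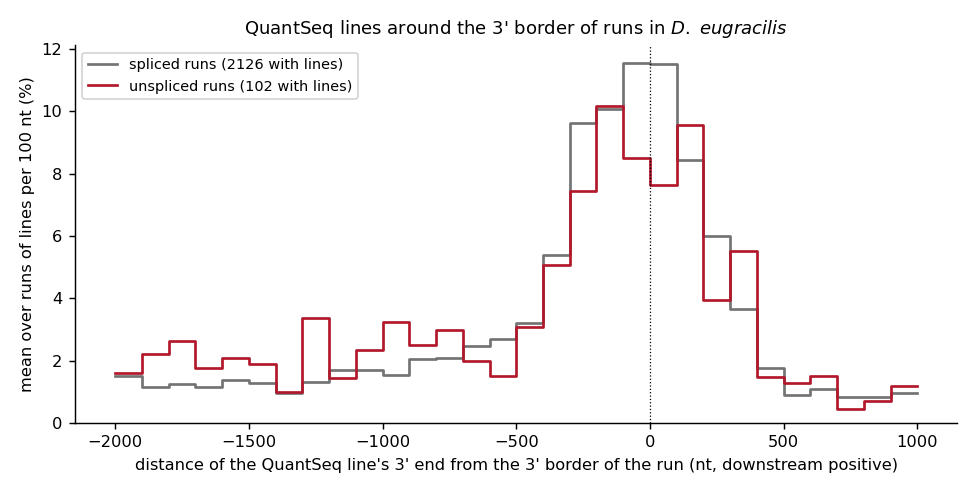
Mean share (%) of QuantSeq alignments per 100 nt around the 3' border of D. eugracilis runs, by distance in nt with downstream positive, for 102 unspliced (red) and 2126 spliced (grey) runs that had any. Both curves peak within 300 nt of the border, at 10.2% per 100 nt for unspliced and 11.6% for spliced runs.

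No QuantSeq alignment was found at the 3' end of 5 runs, for which the exact upper bound was 0.590 CPM each. They were weak in polyA RNA, with 2.79 RPKM for the longest, NW_024573052.1:1952501-1956000 in LOC108104421. The others had 5.29 (LOC108111782), 4.38 (LOC108112976), 3.94 (LOC108102809) and 2.39 RPKM (LOC108107784). All 5 lay wholly inside the span of 1 annotated gene, were touched by no own-strand intron and held 0 split alignments. One of them, in LOC108112976, had 286 QuantSeq alignments within the run, while the other 4 had between 0 and 12.

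Runs on both sides of the splicing limit overlapped in level. Just inside it in D. pseudoobscura were runs with 0.979%, 0.978% and 0.967% split alignments at 35.6, 8.25 and 104 RPKM, and just outside it runs with 1.01%, 1.02% and 1.08% at 28.9, 2.75 and 121 RPKM. In D. eugracilis the values were 0.974%, 0.943% and 0.939% inside and 1.11%, 1.13% and 1.14% outside. In D. bifasciata they were 0.992%, 0.9901% and 0.964% inside and 1.04%, 1.10% and 1.10% outside. For the run with 1.02%, 2 split alignments of 197 placed it outside, so membership of weak runs near the limit rests on single reads. In 152 of the 360 runs no alignment was split at all.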

How the data were processed

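The authors trimmed and quality-filtered the reads and mapped them with STAR 2.7.3a, and their processing notes also name SAMtools 1.10 and bedtools 2.28.0. They deposited genome-unique mappers as alignment lists whose only value is a mapping score, 255 throughout and not used. D. pseudoobscura was mapped to a Nanopore assembly, D. eugracilis to ASM1815383v1 and D. bifasciata to UCBerk_Dbif_1.0. A description attached to the D. bifasciata library gives another species, so its title was used, and strain names differ from the stocks in the methods. Counting used Python 3.11.15 with numpy 2.4.6, pandas 2.3.3 and scipy 1.17.1, both mates of a pair included. Contig ends were the furthest aligned bases. Genes of the RefSeq table for ASM1815383v1 (13981 of 15386) were given the contig whose junctions lay to 90% or more inside single genes. No genome sequence was used here. Code was checked on simulated data. Named runs were the 5 longest, the 5 with most alignments per kb, the 3 nearest either side of the splicing limit and, in D. eugracilis, the 5 with most QuantSeq alignments and the longest without any; others named were chosen after their values were seen. Runs, lists and rules were chosen with earlier results of these data known. Alternatives covered the counting unit, tile, strand, splicing and intron limits and the QuantSeq window.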

Additional observations from a re-analysis of the deposited data

How the results depend on the processing

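No paired analysis was possible because each group had 1 library. Values follow in the order D. pseudoobscura, D. eugracilis and D. bifasciata. The numbers of unspliced runs became 14, 59 and 44 with 99% on 1 strand, 382, 292 and 378 with under 5% split, 22, 12 and 16 with 10 or more tiles, 57, 44 and 51 with no split alignment, and 83, 60 and 67 when entering split alignments counted. They stayed within 1.5 times under the 5 other settings, at 117, 91 and 110 with pairs counted once. The percentages of library alignments in the runs became 0.0149, 0.537 and 0.186 with 99% on 1 strand, 7.79, 3.93 and 4.96 with under 5% split, 0.466, 0.101 and 0.214 with 10 or more tiles, 0.316, 0.203 and 0.319 with no split alignment, 1.02, 1.27 and 0.575 with entering ones, 2.04, 1.91 and 1.33 with pairs counted once, 2.49, 1.86 and 1.41 with identical alignments counted once, 1.96, 1.93 and 1.17 with 16 or more per tile, 2.48, 2.03 and 1.92 with 4 or more, and 2.703 and 1.92 in D. pseudoobscura and D. bifasciata with tiles shifted by 250 nt. In that shift the new runs overlapped 88, 66 and 89 of the runs reported. The overlap was 110, 77 and 85 with pairs counted once, and 91, 74 and 80 with identical alignments counted once. The median distance to an own-strand spliced unit became 1986 nt (D. eugracilis) and, for D. bifasciata, 1885 nt with introns of 10 or more alignments. The share of D. eugracilis runs with QuantSeq alignments at the 3' end stayed between 88.3% and 95.1% under 4 settings. The cause of these shifts beyond the limits themselves was not tested. Depth limits which weak stretches reach 8 alignments per tile, and the strand setting of 99% removes most runs where the other strand is at 3.20%, in D. pseudoobscura.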
